A study of Polistes fuscatus with 17 samples.

Results

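Of 157691 contigs counted in the brain transcriptome of the paper wasp Polistes fuscatus, 122 stood higher in each of 9 foundress brains than in any of 8 worker brains. A contig is a stretch of assembled RNA sequence, and its level is given as CPM, the reads on it for each 1 M reads counted in that library. The 122 were picked by these levels in 3 steps. The mean CPM over the 17 libraries had to be at least 1, the 100 contigs of highest mean CPM were set aside, and the lowest foundress had to lie above the highest worker. The first 2 steps left 50494 contigs, of which 0.242% met the last step. The same rule turned round, with every worker above every foundress, was met by 620 contigs, or 1.23%. The choice used the levels of foundresses against workers, so that difference at the 122 contigs is described here without support from a test. Their levels are tested only inside each caste. The rule also leaves out contigs with a low foundress or a high worker, which bounds levels inside each caste. Shares over all contigs, given beside those tests, are not bounded in this way.

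In P. fuscatus, foundresses are females that mate, overwinter and start nests in spring, where they contest rank and lay eggs. Workers are their daughters, which emerge later in the season and mostly forage, build and tend brood. Females of this species have varied facial markings and can tell individuals apart by face, and foundress and worker brains have long been compared in paper wasps to ask how social role goes with gene expression in animals of the same genome.

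Each library came from the brain of a single adult female from Ann Arbor, Michigan, in 2012, taken 30 minutes after the last of 40 trials in a T-maze with negative reinforcement. The 5 foundresses trained to P. fuscatus faces were F25, F29, F35, F42 and F55, all collected in May. The 4 foundresses trained to simple patterns were F17 and F3, from May, and F34 and F52, from June. The 8 workers were all trained to faces after a week or more on a nest that was not their own. FW10, FW25 and FW28, from July, and FW47, from August, lived on nests of their own species, while FW11 and FW24, from July, and FW32 and FW44, from August, lived on nests of P. metricus. No worker learned patterns or stayed on its natal nest, and no foundress was moved, so caste, season and nest transfer cannot be told apart in a difference between the castes. Training can be held to faces by setting the 5 foundresses trained to faces beside the 8 workers, which share it. In whole brains, fewer cells of a type and less RNA per cell cannot be told apart either.

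The contigs carry identifiers only. None of the 157691 identifiers occurred among the 13634 entries of the RefSeq gene table of assembly CU_Pfus_HIC (0 matches), so no gene, function or tissue marker is assigned to a contig. Contig lengths and sequences were not used here, so levels are compared between wasps for 1 contig and not between contigs.

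Total counts were 7.69 to 20.4 M in foundresses and 16.5 to 20.2 M in workers, with means of 15.6 and 18.7 M (exact permutation test, two-sided, p = 0.0163, adjusted p = 0.0244 over 3 tests). The 100 contigs of highest mean CPM took 19.99 ± 4.45% of the counts in foundresses (SD, n = 9) and 14.3 ± 1.497% in workers (n = 8; exact permutation test, p = 0.00288, adjusted p = 0.00864). A larger share in those contigs leaves a smaller share for all others when libraries are scaled by their totals. Over the 50494 contigs, the median ratio of mean foundress to mean worker CPM was 0.929 on this scale and 1.00 with TMM factors, which scale libraries to a common centre of their contigs. With TMM scaling the rule picked 207 contigs in place of 122, 99 of them shared, and 480 in place of 620 on the worker side. The part of this difference in composition in the count of 122 was not tested beyond that change of scale.

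Foundresses held 1.26 to 20.7 times the worker mean at the 122 contigs, with a median of 1.76. The ratio was over 2 at 43 contigs, over 3 at 10 and over 4 at 6, and it was under 1.5 at 29. Most were moderate differences in contigs that workers also expressed: 120 of the 122 had counts in all 17 libraries. Mean foundress levels ran from 1.44 to 277.6 CPM, with a median of 7.54 CPM. The mean over all 17 wasps had a median of 5.95 CPM at the 122 contigs and 6.78 CPM at the 50494.

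**Figure D1:**
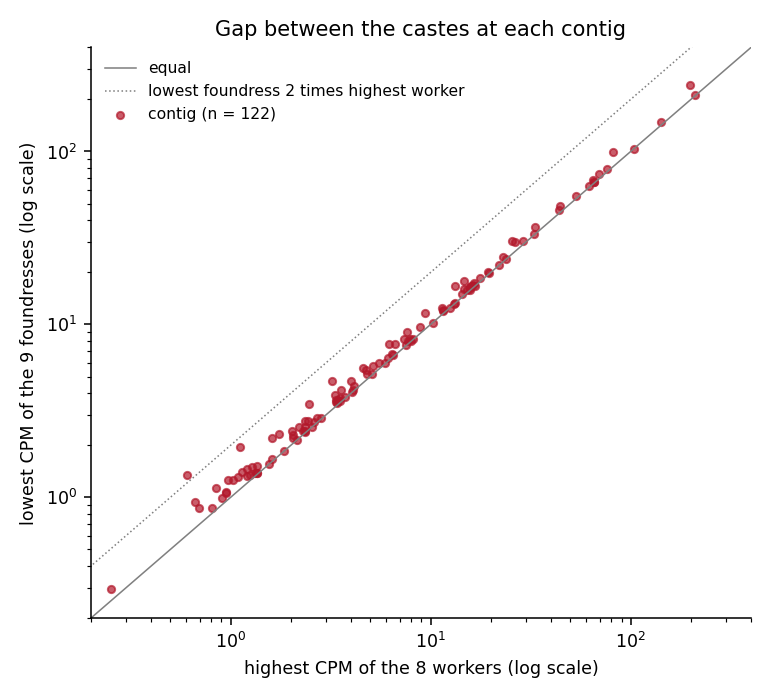
Lowest CPM among the 9 foundresses against highest CPM among the 8 workers, both on log axes, with 1 point for each of the 122 contigs; the solid line marks equal levels and the dotted line a lowest foundress 2 times the highest worker. All points lie above the solid line because of the rule, most of them close to it, and a single contig lies above the dotted line.

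The gap between the castes was narrow at most of these contigs. The lowest foundress exceeded the highest worker by a median factor of 1.06, and by a factor under 1.1 at 79 contigs. It did so by over 1.2 at 21 contigs and by over 1.5 at 2. Exact Poisson 95% intervals for the lowest foundress and the highest worker, which cover counting error only, lay apart at 2 contigs, PfusTSAr1.0-065962 and PfusTSAr1.0-099717. Just inside the border were PfusTSAr1.0-042285, with 2.554 CPM in F29 and 2.553 CPM in FW47, and PfusTSAr1.0-044392, with 2.146 CPM in F34 and 2.144 CPM in FW11. Just outside were PfusTSAr1.0-038696, with 4.939 CPM in both F3 and FW47, where the worker was higher by a ratio of 0.999992, and PfusTSAr1.0-051292, with 5.679 CPM in F52 and 5.681 CPM in FW11. A further 125 contigs had a lowest foundress at 0.95 to 1 times the highest worker, so the border passes through a continuous range of contigs.

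PfusTSAr1.0-077235 had the widest gap. Foundresses trained to faces had 1.34, 1.70, 1.87, 2.53 and 2.89 CPM, and those trained to patterns 1.39, 1.64, 1.95 and 2.73 CPM. Workers on conspecific nests had 0.277, 0.301, 0.602 and 0.602 CPM, and those on P. metricus nests 0.0607, 0.161, 0.456 and 0.545 CPM. The foundress groups covered nearly the same range, while 2 of the 4 workers on P. metricus nests lay below all 4 on conspecific nests. The lowest foundress, F55, stood at 2.22 times the highest worker, FW10. The means were 2.003 ± 0.575 CPM in foundresses (SD, n = 9) and 0.376 ± 0.206 CPM in workers (n = 8).

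PfusTSAr1.0-084830 came next, and its foundresses were the more even. It measured 2.27, 2.37, 2.74, 2.87 and 3.09 CPM with faces and 1.96, 2.36, 2.82 and 2.86 CPM with patterns. In workers it was 0.351, 0.541, 0.555 and 0.652 CPM on conspecific nests and 0.364, 0.496, 0.590 and 1.11 CPM on P. metricus nests. A single worker, FW44, set the gap of 1.75, while the other 7 workers lay at 0.652 CPM or lower.

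Of the next 4, PfusTSAr1.0-110232 ran from 4.72 to 13.3 CPM in foundresses (median 5.55) and from 2.06 to 3.21 CPM in workers (median 2.45). Its highest foundress was F17, and the other 8 lay at 6.04 CPM or below. PfusTSAr1.0-051360 ran from 3.49 to 8.80 CPM in foundresses (median 4.32) and from 1.54 to 2.46 CPM in workers (median 2.26). Here F55 was the highest. PfusTSAr1.0-040369 ran from 0.939 to 4.20 CPM (median 2.04) against 0 to 0.668 CPM (median 0.467), and FW44 had no read of it. PfusTSAr1.0-049377 ran from 2.20 to 4.29 CPM (median 2.59) against 0.728 to 1.61 CPM (median 1.37). In each of these 4 the SD in CPM was larger in foundresses. It was 2.71, 1.66, 1.04 and 0.834 CPM against 0.338, 0.296, 0.244 and 0.329 CPM in workers. The means were larger as well, at 6.18, 5.16, 2.24 and 2.99 CPM against 2.51, 2.17, 0.409 and 1.22 CPM. Over the 122 contigs, the SD divided by the mean had a median of 0.252 in foundresses and 0.152 in workers.

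The remaining 4 of the 10 widest gaps were PfusTSAr1.0-098484, PfusTSAr1.0-057291, PfusTSAr1.0-103899 and PfusTSAr1.0-050664. Foundresses averaged 4.23 ± 1.63, 1.59 ± 0.471, 1.84 ± 0.467 and 21.0 ± 7.20 CPM at these, and workers 1.02 ± 0.452, 0.614 ± 0.203, 0.835 ± 0.0908 and 8.92 ± 2.63 CPM. The last was the most read of the 10, and F17, at 39.9 CPM, lay apart from the other foundresses, at 16.6 to 20.4 CPM. All 10 kept the lowest foundress above the highest worker under TMM and under DESeq2 size factors.

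**Figure D2:**
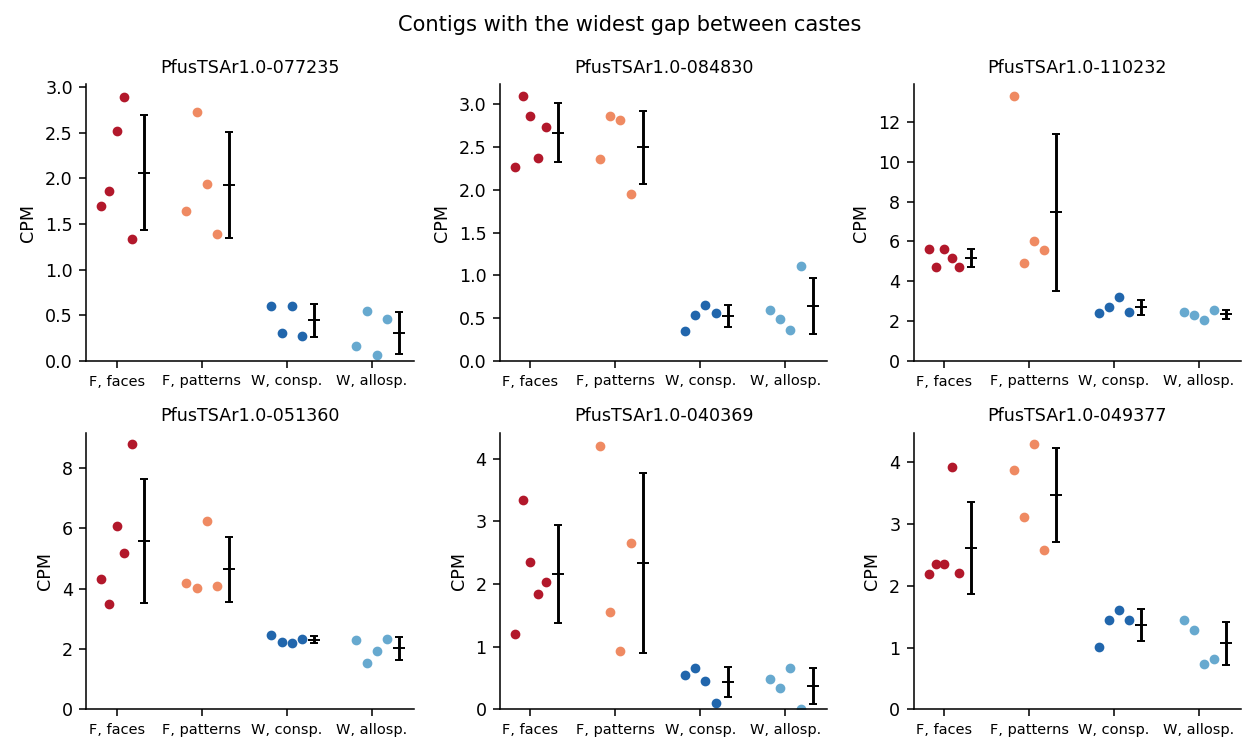
CPM in each wasp at the 6 contigs with the widest gap, by group (F, foundresses trained to faces or patterns; W, workers on conspecific or allospecific nests); points are wasps, and bars give the mean and SD of the group beside them. The lowest foundress lies above the highest worker in each panel, with F17 far above the other foundresses at PfusTSAr1.0-110232.

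The 5 contigs with the highest foundress mean had gaps of 1.001 to 1.23. PfusTSAr1.0-065962 ran from 243.9 to 361.3 CPM in foundresses (median 267.5) and from 80.5 to 198.2 CPM in workers (median 147.9). Its gap of 1.23 rests on 3443 counts in F25 and 3297 in FW25, the 95% intervals being 235.8 to 252.1 and 191.5 to 205.1 CPM. PfusTSAr1.0-081532 ran from 211.7 to 438.8 CPM (median 265.0) against 143.5 to 210.8 CPM (median 178.8), and PfusTSAr1.0-085568 from 79.7 to 148.4 CPM (median 110.9) against 33.4 to 76.1 CPM (median 61.2). On the TMM scale the highest worker passed the lowest foundress at both of these, with log2 ratios of -0.0543 and -0.0687. PfusTSAr1.0-056789 ran from 148.5 to 254.0 CPM (median 178.9) against 96.5 to 141.5 CPM (median 108.8). PfusTSAr1.0-112072 ran from 103.6 to 234.2 CPM (median 119.4) against 87.1 to 103.5 CPM (median 95.6), the most even level in workers of the 5, with F17 again the highest foundress.

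The largest ratio of means belonged to a contig carried by 1 wasp, named after its values were seen. PfusTSAr1.0-029414 measured 16.1 CPM in F55 and 0.295 to 2.60 CPM in the other foundresses, against 0 to 0.253 CPM in workers. With 5 counts or fewer in each worker, and none in FW47 and FW11, its ratio of 20.7 is mostly the level of F55. PfusTSAr1.0-057968, likewise named afterwards, had the next ratio, 9.56, and varied widely between foundresses, from 0.872 to 8.94 CPM (median 3.90), against 0.111 to 0.804 CPM in workers (median 0.325).

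Wasp F17, trained to patterns, stood apart from the other foundresses over these contigs and over its whole library. Over all contigs, its counts differed from those of its group by a chi-square per degree of freedom of 41.5 to 46.2, where no other pair of libraries within a group exceeded 29.4, and its TMM factor, 0.785, was the lowest of the 17. It was the highest foundress at 61 of the 122 and the lowest at 1. The rule keeps no contig at which a foundress falls below a worker, so low values of F17 are left out by the choice. Of 164 contigs chosen without F17, it was not above every worker at 44. On the scale of log2(CPM + 0.5), the median of all wasps is by the rule the lowest foundress at each contig. F17 lay a median of 0.74 above it, where the other 8 foundresses lay 0.17 to 0.44 above it. Its level was a median of 1.31 times the mean of the other foundresses, over 2 times at 22 contigs and under 0.5 times at 1. The 122 contigs took 0.375% of its counts against 0.254 to 0.294% in the other foundresses and 0.162 to 0.181% in workers. Without F17 all 122 contigs still met the condition, since leaving out a foundress cannot lower the minimum, but 2 of them fell under the floor on the mean CPM, and the median ratio of foundresses to workers was 1.63 in place of 1.76.

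FW28, on a conspecific nest, was the worker nearest to the foundresses at these contigs. Over all contigs, its chi-square per degree of freedom against its group was 20.1 to 21.8. The other pairs of that group had 7.73 to 10.1. FW28 was the highest worker at 45 of the 122 contigs, where the other workers were highest at 5 to 19. Its median deviation was -0.19 on the log2 scale, against -0.44 to -0.32 in the other workers. Without FW28 the rule picked 338 contigs, and without both FW28 and F17 it picked 440, and 216 of the 338 failed the rule in FW28. The role of the lowest foundress was more evenly spread, falling to F55 at 23 contigs, F29 at 22, F3 at 20 and F34 at 18. The lowest foundress median on that scale was 0.17, in F55.

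**Figure D3:**
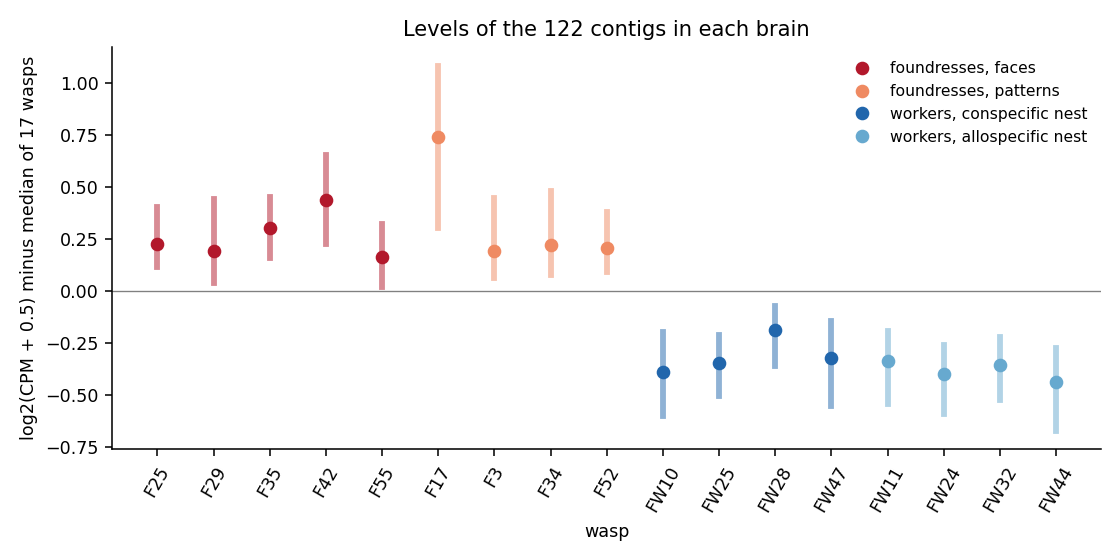
Level of the 122 contigs in each wasp, as log2(CPM + 0.5) minus the median over the 17 wasps of the same contig; points are medians over the contigs and bars the range from the lower to the upper quartile. By the rule the median over the 17 wasps is the lowest foundress at each contig, so 0 marks that level. All foundress medians lie above 0 and all worker medians below it, as the rule fixes, with F17 highest at 0.74 and FW28 the highest worker at -0.19.

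To read each wasp at contigs it had no part in choosing, the rule was applied to the other 16 libraries. The held-out wasp lay beyond the whole other caste at a median of 78.6% of the contigs so chosen. Among foundresses this share was 67.6% in F34, 70.3% in F55, 73.2% in F17, 76.6% in F29, 77.7% in F3, 78.2% in F25, 78.6% in F52, 88.4% in F42 and 90.4% in F35. Among workers it was 78.2% in FW11, 81.3% in FW47, 85.3% in FW25, 88.4% in FW24, 89.1% in FW32, 93.1% in FW44 and 94.6% in FW10, but 36.1%, or 122 of 338 contigs, in FW28. Over all contigs past the first 2 steps, a held-out foundress lay above every worker at 9.35 to 20.6% and a held-out worker below every foundress at 5.25 to 7.495%. Each of the 17 wasps was on the side of its own caste more often at the chosen contigs, FW28 included at 36.1% against 6.85%. Choosing contigs at which the other 16 wasps were already apart raises this share by itself. The share over all contigs is therefore no measure of chance here, and nothing is concluded from exceeding it.

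A milder reading set each held-out wasp against the median of the other caste. FW28 lay below the foundress median at 275 of the 338 contigs, 81.4%, against 46.3% of all contigs. The choice of contigs raises this share as well. A wasp between the castes could also lie below that median, so this share does not place FW28 nearer to either. The other held-out workers lay below that median at 94.9% of their contigs or more. Held-out foundresses lay above the worker median at 81.1% in F17 and 88.3 to 97.8% in the others.

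**Figure D4:**
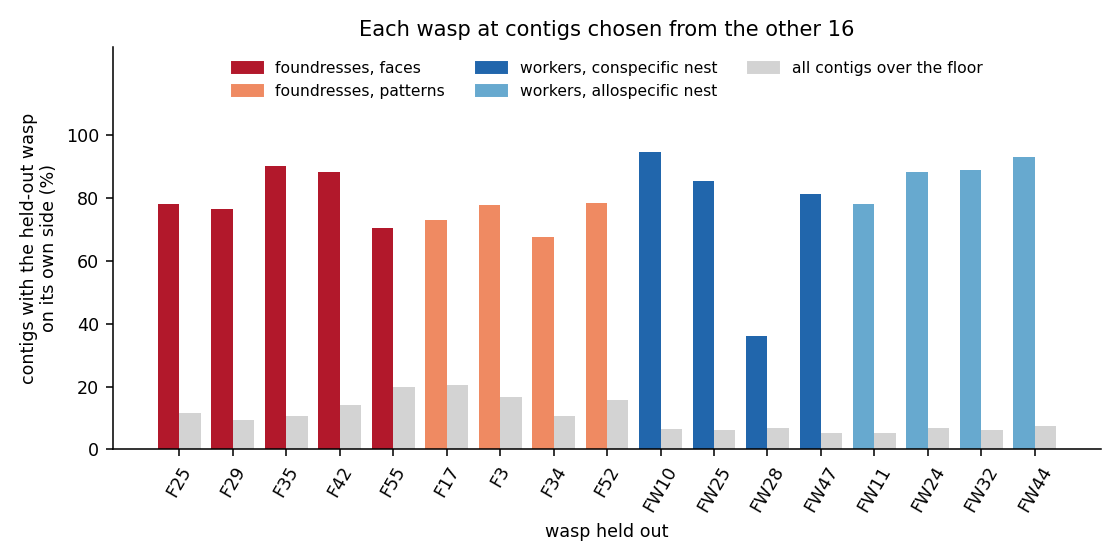
Share of contigs, in percent, at which each wasp lay beyond the whole other caste; coloured bars are contigs chosen by the same rule from the other 16 wasps, and grey bars are all contigs past the first 2 steps. Coloured bars stand between 67.6 and 94.6% except in FW28, at 36.1%, and grey bars between 5.25 and 20.6%.

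Among foundresses, none of the 122 contigs passed the test between training to faces and training to patterns. All 122 passed the filter on low counts. The quasi-likelihood test of edgeR, adjusted by Benjamini-Hochberg over 61002 contigs and read at 0.05 as the false discovery rate (FDR), called 0 of them and 0.0% of all contigs. The lowest adjusted p among the 122 was 0.676. limma-voom also called 0 of the 122, and DESeq2 called 0 of the 105 to which it gave an adjusted p. At an unadjusted p under 0.05 edgeR had 15 of the 122, 12.3%, against 7.14% of all contigs, of which 14 were lower with faces. DESeq2 had 16 of the 122 at that level, against 7.49% of all contigs, while limma-voom had 6, or 4.92%, against 6.49%. The median log2 difference, faces minus patterns, was -0.21 over the 122 and -0.03 over all contigs tested. All foundresses trained to faces were from May. With terms for month added, the June term takes up F34 and F52, so faces are set against F17 and F3 alone. The median was then -0.40 over the 122 and 0.01 over all contigs. That fit called 0 of the 122 (lowest adjusted p 0.136) and had 36 of them, 29.5%, at an unadjusted p under 0.05 against 15.7% of all contigs. Without F17, in the fit by group, the median was 0.07, so its direction rests on this wasp, and 10 of the 122, 8.2%, had an unadjusted p under 0.05 against 11.6% of all contigs. For this comparison the fit with month terms was not run without F17. Relative to the worker mean, the median ratio was 1.63 in foundresses trained to faces, 1.86 in those trained to patterns and 1.61 in the latter without F17. These ratios share their workers.

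The contigs with the smallest p for training, none of which passed, were lower with faces. PfusTSAr1.0-103899 measured 1.26, 1.34, 1.35, 1.62 and 1.91 CPM with faces and 1.97, 2.21, 2.40 and 2.47 CPM with patterns, with no overlap. PfusTSAr1.0-080071 measured 7.58, 7.61, 8.03, 8.04 and 8.78 CPM against 8.45, 10.1, 10.2 and 11.5 CPM, where only F25 and F3 overlapped. PfusTSAr1.0-082910 measured 8.15, 8.64, 8.71, 8.90 and 9.44 CPM against 8.05, 9.12, 12.2 and 13.9 CPM, an overlap in which F3 and F52 alone stood clear. Their log2 differences were -0.66 (SE 0.20), -0.43 (SE 0.14) and -0.36 (SE 0.12), and edgeR gave all 3 the same adjusted p, 0.676. PfusTSAr1.0-103899 is also among the 10 widest gaps, and its foundresses trained to faces were thus the closer to the workers, at 0.661 to 0.971 CPM.

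Among workers, none of the 122 passed the test between conspecific and P. metricus nests. edgeR called 0 of the 122, and 0.0115% of all contigs. None of the 122 had an unadjusted p under 0.05 in edgeR, against 2.65% of all contigs. At that level limma-voom and DESeq2 had 0 and 1 of the 122, and both called 0. An edgeR fit to the workers alone had 5 of the 118 contigs it tested, 4.24%, at that level, against 5.34% of all. It called 0 of the 118. In the fit to all wasps the median log2 difference, conspecific minus allospecific, was 0.05 over the 122 and 0.00 over all. On conspecific nests 80 of the 122 were higher, 65.6%, against 50.2% of all contigs. Without FW28 the median was -0.01, with 58 of 122 higher, 47.5%, against 48.6% of all. The smallest p belonged to PfusTSAr1.0-098484, with 0.903, 1.00, 1.61 and 1.74 CPM on conspecific nests and 0.545, 0.607, 0.643 and 1.11 CPM on P. metricus nests, where only FW44 reached into the other group. Its log2 difference was 0.80 (SE 0.39), and those of PfusTSAr1.0-077972 and PfusTSAr1.0-108955, the next by p, were 0.76 (SE 0.39) and 0.87 (SE 0.47), all with an adjusted p of 1.00 in edgeR.

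Collection month was read inside each caste, since it differs wholly between them. August and July workers gave 0 of the 122 contigs at the FDR in edgeR, DESeq2 and limma-voom, 2 at an unadjusted p under 0.05 in edgeR, both lower in August, and a median log2 difference of -0.07 (August minus July) against -0.01 over all contigs. At the FDR edgeR called 0.0% of all contigs, and 1.95% had an unadjusted p under 0.05. An edgeR fit to the workers alone had 7 of the 118 contigs it tested, 5.93%, at that level, against 5.08% of all. All 7 were lower in August, and it called 0 of the 118. PfusTSAr1.0-064098 measured 0.853, 0.965, 1.14, 1.19 and 1.204 CPM in July and 0.222, 0.728 and 0.811 CPM in August, with every August worker below every July worker. PfusTSAr1.0-085568 measured 55.9, 61.0, 64.0, 67.5 and 76.1 CPM in July and 33.4, 42.9 and 61.5 CPM in August, where FW32 overlapped. PfusTSAr1.0-105451 measured 50.6, 56.1, 57.5, 60.6 and 65.5 CPM against 41.2, 44.1 and 55.9 CPM, again with FW32 inside the July range. Their log2 differences were -1.06 (SE 0.44), -0.57 (SE 0.24) and -0.37 (SE 0.18), with an adjusted p of 1.00 for each in edgeR.

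June and May foundresses, both trained to patterns, were only 2 against 2. edgeR called 0 of the 122, and 0.0% of all contigs. It had 21 of the 122, 17.2%, at an unadjusted p under 0.05 against 16.6% of all contigs. limma-voom called 0 of the 122, and DESeq2 called 0 of the 100 to which it gave an adjusted p. At an unadjusted p under 0.05 limma-voom had 8 of the 122, 6.56%, against 18.2% of all contigs, and DESeq2 had 22, against 17.3%. A fit to the 4 wasps alone had 0 of the 121 contigs it tested, against 1.77% of all. The median log2 difference, June minus May, was -0.44, against 0.01 over all contigs. It was 0.17 with F17 left out and -0.77 with F3 left out. Without F3 the fit called 49 of the 122 and 33.5% of all contigs, but F17 was then the sole May wasp and was assumed to vary like the wasps of the other groups. PfusTSAr1.0-112072 shows the same arrangement, with 234.2 CPM in F17, 116.8 CPM in F3, 103.6 CPM in F34 and 105.5 CPM in F52. PfusTSAr1.0-052460, at 10.9, 4.55, 3.62 and 4.04 CPM in these wasps, and PfusTSAr1.0-044392, at 4.66, 3.12, 2.15 and 2.40 CPM, had F17 on top as well. Their log2 differences were -0.91 (SE 0.29), -1.22 (SE 0.39) and -0.94 (SE 0.30), and edgeR gave all 3 an adjusted p of 0.227. Both June wasps were the lowest of the 4 at all 3 contigs.

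**Figure D5:**
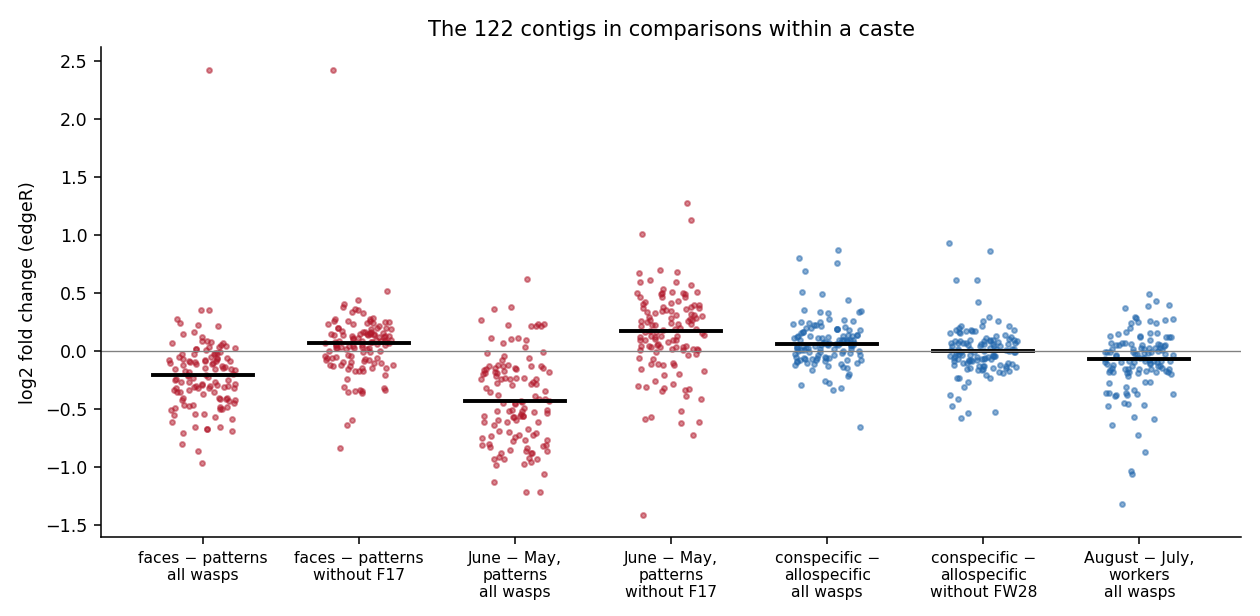
log2 fold change of each of the 122 contigs (points) and their median (bars) in edgeR fits of differences inside foundresses (red) and inside workers (blue), with all wasps and with F17 or FW28 left out. The median for faces minus patterns is -0.21 with all wasps and 0.07 without F17, and that for June minus May is -0.44 and 0.17.

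For the contrast by which the contigs were chosen, foundresses minus workers, the same fit called 5672 of 61002 contigs, 9.3%, all 122 among them. Nothing is read from that count.

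The 122 contigs were spread over the assembly's identifiers, 105 of them with no neighbouring identifier in the set. The other 17 formed 7 pairs and a run of 3. The run, PfusTSAr1.0-086005 to PfusTSAr1.0-086007, had mean foundress levels of 20.4 to 43.8 CPM against 10.7 to 25.9 CPM in workers and ratios of 1.69 to 1.91. In all 3, F42 was the highest foundress and F55 the lowest, and FW24 was the highest worker and FW11 the lowest. Deviations from group means at its first 2 contigs had a Pearson correlation of 0.962 over the 17 wasps, a description, since neighbouring contigs may share reads. In the first pair, PfusTSAr1.0-043166 and PfusTSAr1.0-043167, foundress means were 3.89 to 5.13 CPM and worker means 1.31 to 1.72 CPM, with ratios of 2.96 and 2.99 and a correlation of 0.663. In the other pairs the correlation ran from 0.0929 to 0.916. No contig was assigned to a gene, so the number of contigs is not read as a number of genes.

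Contigs next to the 122 by identifier, which the rule did not pick, leaned the same way. Of 122 such neighbours over the floor, 79, or 64.8%, had a higher mean in foundresses, against 35.3% of all 50494, and their median ratio of foundresses to workers was 1.12 against 0.929. At an identifier distance of 2 the share was 66.2% of 130 contigs, and at distances of 3 to 5 it was 53.0% of 364 contigs. On the TMM scale the share of neighbours was 73.8% against 50.1%, and the median ratio 1.23 against 1.00. Reads shared between neighbours were not tested.

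The correlation among the 122 contigs in foundresses was larger with F17 than without it. The mean pairwise Pearson correlation of their deviations from group means was 0.209 over the 9 foundresses, where it was 0.0861 over all 50494 contigs, and without F17 it was 0.0842 against 0.0950. Over the 8 workers it was 0.0525 against 0.0262, and 0.0233 against 0.00930 without FW28. These correlations share their libraries and are given as a description.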

How the data were processed

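Brain RNA of 17 wasps was made into TruSeq libraries, per the labels' protocols. The deposited table gives raw read counts, as whole numbers, for each contig. Trimmomatic 0.32, Bowtie2 and eXpress are the tools listed in the submitters' processing notes. Their settings, the assembly behind the contigs and the handling of multiply matching reads: not given in the sources used here. Groups came from library titles.

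CPM used column totals. Tests used edgeR 4.0.16 in R 4.3.3: expression filter by group (61002 contigs kept), TMM, a quasi-likelihood fit with 1 mean per group (13 residual degrees of freedom) or with added terms for June and August (11), Benjamini-Hochberg adjustment at an FDR of 0.05, and SE as the fold change over the square root of F. Alternatives used DESeq2 1.42.0 and limma-voom (limma 3.58.1), other filters and scalings, and each wasp left out. The procedure was tested on simulated data with differences larger than most of those at the 122 contigs, and for the rule with counting noise only. That test does not bear on the narrow gaps. The 122 contigs, rules and tests were chosen with earlier results of these data known. Contigs named were the 10 widest gaps, the 5 with the highest foundress mean, the 3 smallest p per comparison, the 2 nearest each side of the border, and the longest run and the first pair of identifiers. Others are said to be outside that rule. Each wasp is a separate animal, with its natal colony not given. Libraries of a group all differed by more than counting noise (chi-square over its degrees of freedom at least 6.02).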

Additional observations from a re-analysis of the deposited data

Results flagged for a closer look

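In 12 of 120 sets of values, each of 1 quantity in 1 group, 1 wasp lay far from the rest of its group by Dixon's gap test. Chance would give about 6 if the sets were independent and not chosen by their values. The contigs were named for their values and the sets share libraries, so no excess is read from this count. No explanation is weighed for any of the 12. In foundresses trained to patterns, 7 of the values belonged to F17. Its share of counts in the 122 contigs was 0.375% against 0.255 to 0.270% in the rest of its group, and its median deviation was 0.74 against 0.19 to 0.22. Single contigs with F17 far above its group were PfusTSAr1.0-042285, at 9.77 CPM against 2.84 to 3.89 CPM, and PfusTSAr1.0-050664, at 39.9 against 16.6 to 20.4 CPM. So were PfusTSAr1.0-052460, at 10.9 against 3.62 to 4.55 CPM, PfusTSAr1.0-110232, at 13.3 against 4.94 to 6.04 CPM, and PfusTSAr1.0-112072, at 234.2 against 103.6 to 116.8 CPM.

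In the same group F3 had a total of 7.69 M counts against 14.9 to 15.8 M, and PfusTSAr1.0-051360 stood at 6.24 CPM in F34, above a range of 4.03 to 4.20 CPM. Among the face-trained foundresses, F42 reached 3.93 CPM at PfusTSAr1.0-049377, above 2.20 to 2.36 CPM in the rest, while PfusTSAr1.0-057291 stood at 2.01 CPM in F35, above 1.22 to 1.39 CPM. In workers on conspecific nests, FW10 had 0.165% of its counts in the 122 contigs against 0.179 to 0.181%.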

How the results depend on the processing

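No paired analysis was possible because the labels tie no wasp to another, each brain being from its own animal. The settings without both F17 and FW28, the neighbours on the TMM scale and the medians over the 122 contigs were chosen after seeing the data. The rule picked 207 contigs with TMM, 216 with DESeq2 size factors, 440 without F17 and FW28 together and 129 to 338 with 1 wasp left out, and 99 and 138 with floors of 2 and 0.5 on the mean CPM. At PfusTSAr1.0-081532 and PfusTSAr1.0-085568 the log2 ratio of lowest foundress to highest worker turned to -0.0543 and -0.0687 with TMM and to -0.0229 and -0.0523 with size factors. Of the 122, those called for June against May were 2 without a filter (1.35% of all contigs were called) and 0 to 49 with 1 wasp left out (33.5% of all at 49, without F3), and their median log2 difference ran from -0.77 to 0.17. The median for faces against patterns was -0.40 with month terms, which set faces against F17 and F3 alone. By group, it ran from -0.32 to 0.0704 with 1 wasp left out. All contigs called for foundresses against workers numbered 3330 to 7511 with 1 wasp left out. For training, nest and worker month, 0 of the 122 were called under every alternative run. DESeq2 gave an adjusted p to 105 of them for training, and fits to the workers alone tested 118. Counting error limits the narrow gaps: the lowest count in a foundress had a median of 53.5. The causes of these shifts were not tested.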

Other observations

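At contigs higher in every worker, chosen from the other 16 wasps, FW28 lay on its own side at 53.9% of 1151 contigs and F55 at 60.5% of 1025, where the other 15 wasps lay there at 73.7 to 98.4%. These 620 contigs had a median mean level of 17.2 CPM over the 17 wasps, against 5.95 CPM at the 122 contigs higher in every foundress, and a median ratio of workers to foundresses of 1.64.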
